A study of Saccharomyces cerevisiae with 12 samples.

Results

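The genes described here are 50 nuclear genes for proteins of the mitochondrial ribosome of Saccharomyces cerevisiae, taken as the rows of the deposited count table with the systematic names of MRPL, MRPS and MRP genes, out of 7108 named features in that table. All 50 were detected well enough to be tested, among 6372 genes tested in all, and the lowest count of any of them in any library was 664 (MRPL32, nascent ulp2Δ). RNA was sequenced from 12 libraries of exponentially growing cells in rich glucose medium, 3 for each of 4 groups, to ask how expression changes when the SUMO protease gene ULP2 is lost and after long growth without it. Nascent ulp2Δ (labelled ulp2D) is strain MHY1379 without ULP2, and the evolved groups, labelled ulp2D 500G #6 and #9 and called line 6 and line 9 here, are single lines of it kept in culture for 500 generations. WT (MHY1379) carries the same chromosomal ulp2 deletion and has ULP2 on the plasmid YCplac33. The study describes the Uba2 mutation C162S in both of its evolved strains, so that on its account line 6 and line 9 share it. A further Uba2 mutation, A414P, is described in a single evolved strain. The labels do not tie a line number to A414P, and the lines are therefore named by number. The labels do not say whether replicates were separate cultures, so p-values measure the spread between these libraries, which may be technical.

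The mitochondrial ribosome translates the few messages of mitochondrial DNA, which in yeast encode mainly core subunits of the respiratory chain and ATP synthase. Its 2 ribosomal RNAs and the protein Var1 are mitochondrially encoded, and its other proteins are made in the cytosol from nuclear genes and imported, so that assembly draws on both genomes. In yeast growing on glucose the nuclear genes of mitochondrial biogenesis are expressed below their respiratory level, and the RNA-binding protein Puf3 binds many of their messages downstream of the stop codon and promotes their decay.

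Of the 50 proteins, 37 belong to the large subunit and 13 to the small subunit. The large subunit genes are MRPL1, MRPL3, MRPL4, MRPL6, MRPL7, MRPL8, MRPL9, MRPL10, MRPL11, MRPL13, MRPL15, MRPL16, MRPL17, MRPL19, MRPL20, MRPL22, MRPL23, MRPL24, MRPL25, MRPL27, MRPL28, MRPL31, MRPL32, MRPL33, MRPL35, MRPL36, MRPL37, MRPL38, MRPL39, MRPL40, MRPL44, MRPL49, MRPL50, MRPL51, MRP7, MRP20 and MRP49. The small subunit genes are MRPS5, MRPS8, MRPS9, MRPS12, MRPS16, MRPS17, MRPS18, MRPS28, MRPS35, MRP1, MRP4, MRP21 and MRP51. By their ribosomal family names, 34 have a bacterial homologue (23 in the large and 11 in the small subunit) and 16 are specific to mitochondria (14 and 2). Other annotated genes overlap MRPL19, MRPL51 and MRP4, and since the use of strand in the authors' counting is not given in the sources used here, the values of those genes are uncertain.

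The feature most of these genes shared, and one not used to choose them, was a short element recognised by Puf3. The letters TGTAAATA, read on the coding strand within 200 bases after the stop codon in the R64 (sacCer3) genome from RefSeq, were found in 28 of the 50 genes (56%), against 256 of 6001 nuclear protein-coding genes (4.27%) and 1 of 137 cytosolic ribosomal protein genes (0.73%). They were present in 11 of 13 small subunit genes (84.6%) and in 17 of 37 large subunit genes (45.9%). The first base lay 27 to 139 bases after the stop codon, with a median of 59, and in 25 of the 28 genes within 100 bases. The 30 bases around the letters are shown for 6 of the 28 genes whose values are given below, written 5′ to 3′ on the coding strand with the letters in capitals.
MRPS28, chrIV:1147197-1147226, plus strand: gtagaaaagctTGTAAATAagaaaccgtca
MRP21, chrII:49401-49430, plus strand: atttccgtcttTGTAAATAggtaatgcgta
MRPS12, chrXIV:694269-694298, minus strand: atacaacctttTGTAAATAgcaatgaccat
MRPL19, chrXIV:292088-292117, minus strand: ctgatctattcTGTAAATAtgtatataagt
MRPL15, chrXII:760291-760320, plus strand: aaaaatttatcTGTAAATAgtgatcgaaat
MRPL4, chrXII:1015467-1015496, plus strand: accctctctccTGTAAATAtatatatatat
MRPL50, MRPL38, MRPL35 and MRPL36, whose values are also given below, did not have the letters in this window. Outside the 50 genes, 53.6% of 28 further nuclear genes for mitochondrial ribosomal proteins had the letters. So did 85.7% of 14 mitochondrial tRNA synthetase genes and 2.7% of 37 nuclear respiratory chain and ATP synthase genes. A match to these letters is a description of the sequence, not a measured binding site. In the 300 bases before the start codon, read on both strands, the letters AATTTT were found in 42% of the 50 genes and 54.1% of all nuclear protein-coding genes. The letters CCAAT, the core of the element bound by the Hap complex, were found in 30% of the 50 genes and 41.8% of all genes. Of 28 further nuclear genes for mitochondrial ribosomal proteins, 60.7% had them. Of 37 nuclear respiratory chain and ATP synthase genes, 89.2% did.

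In WT the levels of the 50 genes for their length differed several-fold between the extremes. Their median was 181 CPM per kb (TMM-normalized CPM, the count scaled to library size, divided by coding length in kilobases, mean of 3 libraries), with quartiles of 140 and 219, against a median of 52.8 over all 5836 tested coding genes and 519 over 137 cytosolic ribosomal protein genes. The 37 respiratory chain and ATP synthase genes stood at a median of 2550 CPM per kb. The medians of large and small subunit genes were both 181. MRPL33, the uL30 homologue, was highest at 616 ± 30.7 CPM per kb (SD, n = 3), followed by MRPS16 (bS16 homologue) at 520 ± 20.2 and MRPS12 (uS12 homologue, at the decoding centre) at 509.6 ± 46.2, neighbours that did not differ beyond their spread. MRPL3, MRPL11 and MRPS35 were lowest at 84.7 ± 1.62, 90 ± 1.36 and 92.4 ± 1.28 CPM per kb, so that the highest level was 7.27 times the lowest. In the plot of WT level against coding length, genes under 500 bases included the 3 with the highest levels.

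**Figure D1:**
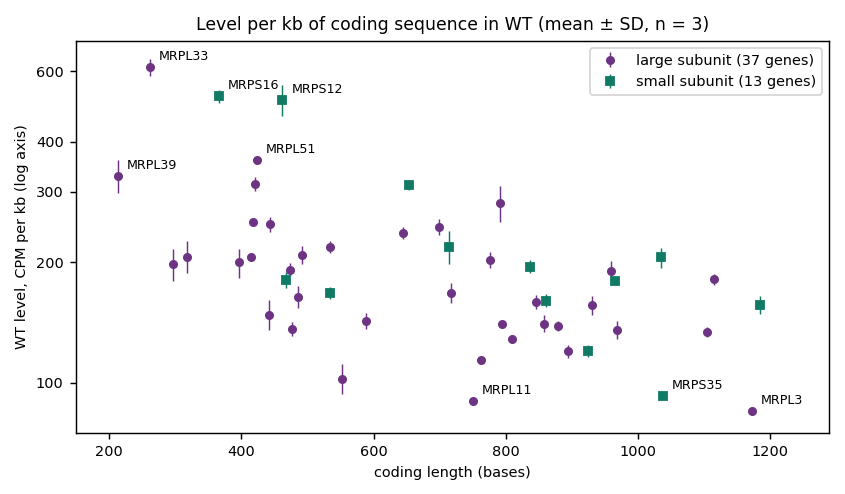
Level of each of the 50 genes in WT against its coding length in bases; the vertical axis is CPM per kb on a log scale, points are means of 3 libraries, bars are SDs, and colour and shape mark the subunit. Of the 50 genes, 40 lie between 100 and 300 CPM per kb, with MRPL33, MRPS16 and MRPS12 highest and MRPL3 lowest.

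Loss of ULP2 was accompanied by lower RNA of nearly all of these genes. In nascent ulp2Δ, 49 of the 50 genes were lower than in WT and 1 was higher (edgeR's quasi-likelihood test, Benjamini-Hochberg adjusted p under 0.05 over all genes tested), where 39.7% of all tested genes were lower and 33.6% higher. The same 49 genes had all nascent libraries below all WT libraries, a pattern found for 40.5% of all tested genes. Their median log2 fold change was -0.68, against -0.02 over all genes, and ran from -1.09 (MRPS28) to 0.11 (MRPL15). The change was moderate in size: 1 gene was lower by 2-fold or more, where 2.67% of all genes were lower by that much and 9.15% changed by it in either direction. The genes took 0.47% ± 0.00503 of all counts in nascent ulp2Δ and 0.629% ± 0.00847 in WT (SD, n = 3 each). In bulk RNA, fewer cells with these transcripts and less of them per cell cannot be told apart.

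MRPS28 (YDR337W), the homologue of the small subunit protein uS15, had 64.9, 64.4 and 64.7 CPM in nascent ulp2Δ, against 143.6, 133.5 and 137 CPM in WT. The WT libraries were all above the nascent ones by a wide margin, and the log2 fold change was -1.09 (adjusted p = 7.47e-12 from edgeR, with a standard error of 0.04). MRPL50 (YNR022C), the bL9 homologue of the large subunit, had 64.9, 66.8 and 67.2 CPM in nascent ulp2Δ and 126, 132.8 and 137.2 CPM in WT, a log2 fold change of -0.99 (adjusted p = 1.13e-10 from edgeR, with a standard error of 0.05). MRPL38 (YKL170W), the uL14 homologue at the face between the subunits, had 51.9, 55.9 and 54.3 CPM in nascent ulp2Δ and 103.8, 106.2 and 106.1 CPM in WT, a log2 fold change of -0.96 (adjusted p = 4.21e-09 from edgeR, with a standard error of 0.07). None of these 3 genes had overlapping groups.

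The smallest falls were in MRPL4 (log2 fold change -0.18), MRP20 (-0.19) and MRPL33 (-0.20). MRP20, the uL23 homologue beside the exit of the polypeptide tunnel, had 194.1, 196.5 and 196 CPM in nascent ulp2Δ, against 225.8, 243.8 and 198.1 CPM in WT, so that the lowest WT library lay just above the nascent ones. These 3 falls did not pass the test when libraries were scaled by their totals, with log2 fold changes of -0.03 (MRPL4), -0.04 (MRP20) and -0.06 (MRPL33). Those of MRPL4 and MRP20 also lost the call, at -0.11 and -0.12, when the TMM factors came from genes off chromosomes I and XII and outside the cytosolic ribosomal proteins. They lost it as well without nascent replicate 3 (MRPL4, adjusted p = 0.0798 from edgeR) and without nascent replicate 1 or WT replicate 2 (MRP20, adjusted p = 0.0539 and 0.0603 from edgeR). MRP7, the bL27 homologue close to the peptidyl transferase centre, had a log2 fold change of -0.28, MRPS12 of -0.38, MRP51 (bS1 homologue) of -0.54, and MRPL32, which in yeast is processed by a mitochondrial protease before it joins the ribosome, of -0.81. All 4 passed the test.

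The only rise was in MRPL15 (YLR312W-A, mL57, a large subunit protein specific to mitochondria), which had 90, 95.1 and 94.7 CPM in nascent ulp2Δ and 87.6, 86.2 and 86.2 CPM in WT. The groups were separate by a small margin, and the log2 fold change was 0.11 (adjusted p = 0.0357 from edgeR, with a standard error of 0.04). The call was lost on leaving out line 6 replicate 1, line 9 replicate 2 or any of the WT libraries, with adjusted p between 0.0531 and 0.0805 in those fits. MRPL15 and MRPL4 are the 2 genes of the 50 on chromosome XII, whose 502 tested genes had a median log2 fold change 0.76 above that of all other genes in nascent ulp2Δ. The 48 genes on other chromosomes were all lower, with a median of -0.71. The part of the chromosome in the values of MRPL15 and MRPL4 was not tested.

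**Figure D2:**
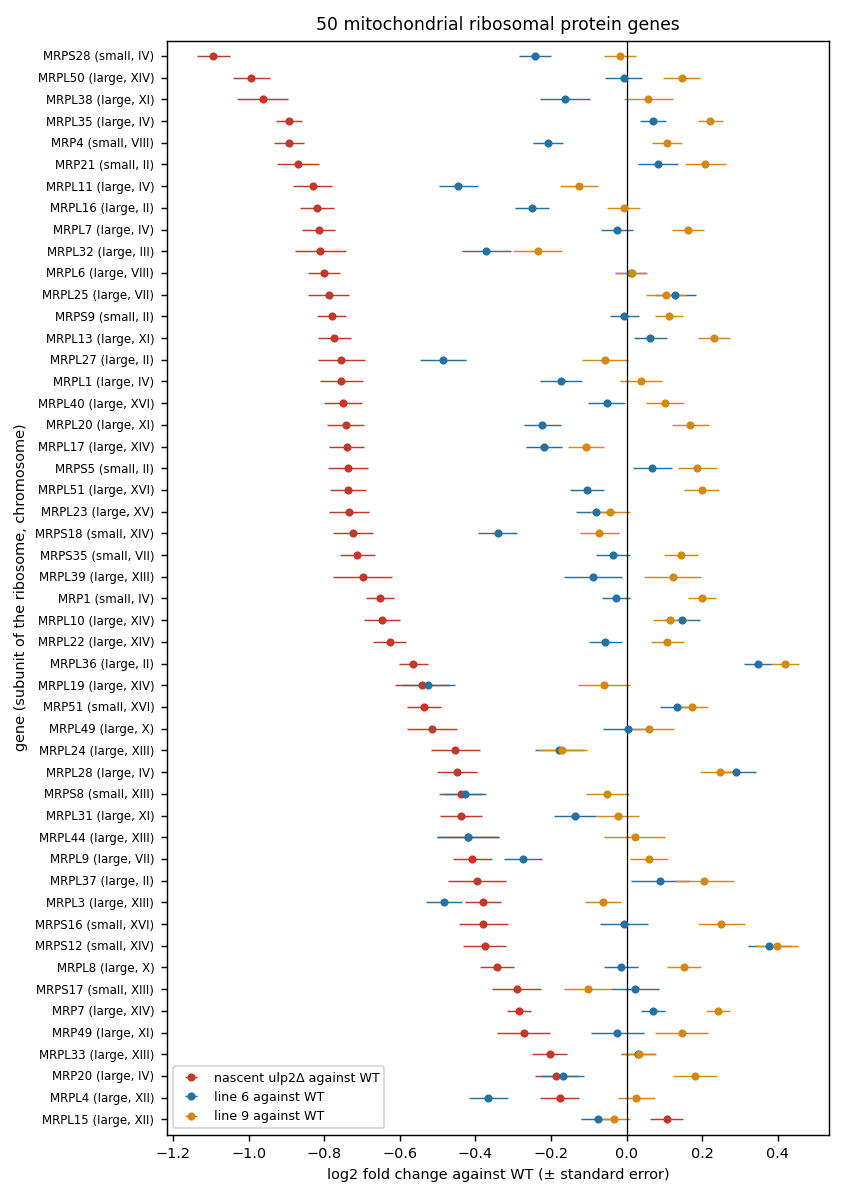
Log2 fold change against WT of each of the 50 genes in nascent ulp2Δ, line 6 and line 9; points are edgeR estimates from 3 libraries a group, bars are standard errors, and the subunit and chromosome are given beside each name. The nascent values lie below 0 for 49 genes and reach -1.09 (MRPS28), while those of line 6 and line 9 lie on both sides of 0 between -0.53 and 0.42.

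The fall in nascent ulp2Δ was seen in both subunits and in proteins with and without a bacterial homologue. Of the 37 large subunit genes 36 fell, and of the 13 small subunit genes 13 fell, where 39.7% of all tested genes did. The median log2 fold change was -0.65 for the large subunit genes and -0.71 for the small subunit genes. It was -0.67 for the 34 genes with a bacterial homologue and -0.68 for the 16 specific to mitochondria. The 28 genes with the Puf3 letters had a median of -0.58 and the 22 without them -0.74. These differences between classes of genes were not tested. PUF3 itself (YLL013C), which also lies on chromosome XII, had 231.5, 218.4 and 236.8 CPM in nascent ulp2Δ and 150.2, 156.8 and 161.9 CPM in WT, a log2 fold change of 0.55 (adjusted p = 3.8e-08 from edgeR, with a standard error of 0.05). The part of PUF3 in the values of the 50 genes was not tested.

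Other genes of the same machinery had medians below 0 in nascent ulp2Δ, where 39.7% of all tested genes were lower and 33.6% higher. Of 28 further nuclear genes for mitochondrial ribosomal proteins, listed beside the 50 by name, 27 fell (median -0.54), led by MNP1 (-0.94, the bL12 homologue of the stalk), and RSM7 did not pass the test (-0.06). Of 9 mitochondrial translation factor genes, 7 fell and 1 rose (median -0.72), among them TUF1, the mitochondrial elongation factor Tu, at -0.83. Of 14 mitochondrial tRNA synthetase genes, 9 fell and 1 rose (median -0.40). Of 16 translational activators of single mitochondrial messages, 9 fell and 3 rose (median -0.15), and of 6 genes for assembly of the mitochondrial ribosome, 3 fell and 1 rose (median -0.12). All 37 nuclear respiratory chain and ATP synthase genes fell, with a median of -0.88.

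The mitochondrially encoded parts of the ribosome were lower than in WT in all 3 strains. The large rRNA (21S_RRNA) had 1388, 1388 and 1321 CPM in nascent ulp2Δ, 1234, 1110 and 1216 in line 6, 953.9, 946.6 and 1165 in line 9, and 2258, 2119 and 2594 in WT. Every WT library was above every other library, with log2 fold changes of -0.77 in nascent ulp2Δ, -0.97 in line 6 and -1.19 in line 9 (adjusted p = 4.75e-07, 2.69e-08 and 6.25e-09, edgeR). For the small rRNA (15S_RRNA) they were -0.77, -1.61 and -1.37, and for VAR1, the small subunit protein encoded in mitochondrial DNA, -0.65, -1.23 and -1.61. VAR1 was counted at 90 to 741 reads a library, and its fall in nascent ulp2Δ was not called by DESeq2 (adjusted p = 0.085), with library totals (adjusted p = 0.0957 from edgeR) or with TMM factors from genes off chromosomes I and XII and outside the cytosolic ribosomal proteins (adjusted p = 0.0589 from edgeR). It was also lost without any 1 of the nascent libraries, WT replicate 2 or WT replicate 3 (adjusted p between 0.0543 and 0.139). How RNA without a poly(A) tail was captured is not given in the sources used here, and its part in these values was not tested.

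The cytosolic ribosomal protein genes, set beside the 50 genes, moved the other way in nascent ulp2Δ. Of 137 genes, 130 were higher and 2 lower than in WT, where 33.6% of all tested genes were higher and 39.7% lower. The median log2 fold change of the 137 genes was 0.48. The median of the 50 mitochondrial genes lay 1.15 below theirs on the log2 scale (difference -1.15). This difference does not depend on how libraries are scaled. Counts of cytosolic ribosomal protein genes were 12.1 ± 0.174 times those of the 50 genes in nascent ulp2Δ and 5.48 ± 0.0746 times in WT (SD, n = 3 each). RPL3, a large subunit protein gene with no second copy, had 1322, 1341 and 1343 CPM in nascent ulp2Δ and 985, 954.7 and 959.9 CPM in WT (log2 fold change 0.47), and RPS3, a small subunit protein gene of the same kind, had a log2 fold change of 0.31. Many cytosolic ribosomal protein genes have a near-identical copy, between which reads can be split. The 19 with no A or B copy all rose, with a median of 0.54. The difference was -1.16 when genes of chromosomes I and XII were left out.

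**Figure D3:**
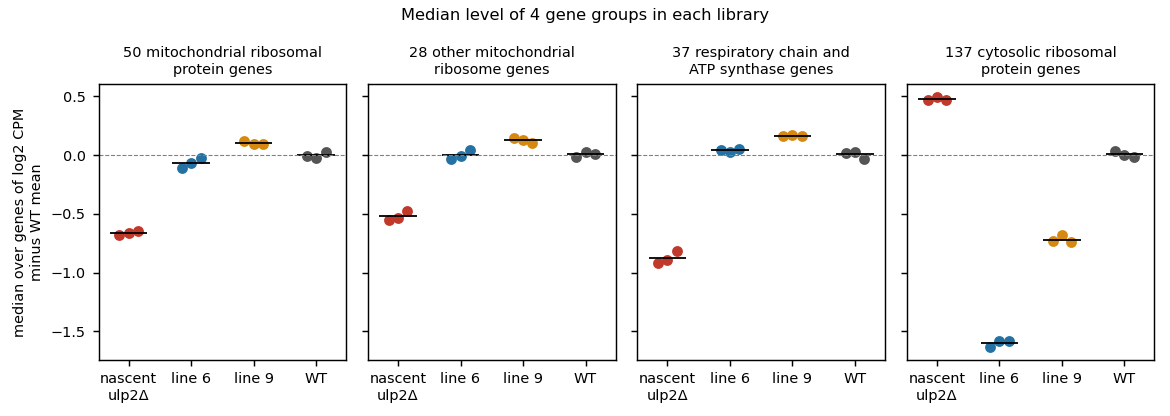
Median over the genes of 4 groups of the log2 CPM of each library minus the WT mean; each point is 1 library, the lines are means of 3, and the dashed line is the WT mean. Mitochondrial ribosomal protein genes lie near -0.66 in the nascent libraries and within 0.12 of 0 in line 6 and line 9, while cytosolic ribosomal protein genes lie near 0.48 in nascent ulp2Δ and below WT in both lines.

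In line 6 the 50 genes were close to WT as a group, with single genes on both sides. Against WT, 6 genes were higher and 20 lower, where 36.8% of all tested genes were higher and 37.2% lower, and the other 24 did not pass the test. The median log2 fold change was -0.05, against -0.01 over all genes, and no gene changed by 2-fold, where 15.1% of all genes did. With library totals 3 genes were higher and 31 lower, and without WT replicate 2 only 3 were higher. The genes took 0.563% ± 0.0201 of all counts in line 6 and 0.629% ± 0.00847 in WT (SD, n = 3 each).

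The genes highest in line 6 against WT were MRPS12, MRPL36 and MRPL28. MRPS12 had 308.1, 301.9 and 307.8 CPM in line 6, against 246.7, 248.7 and 210.8 CPM in WT, a log2 fold change of 0.38 (adjusted p = 2.11e-05 from edgeR, with a standard error of 0.06). MRPL36 (YBR122C), the bL31 homologue, had 146, 147.1 and 151.2 CPM in line 6 and 118.9, 111.7 and 118.7 CPM in WT, a log2 fold change of 0.35 (adjusted p = 5.71e-07 from edgeR, with a standard error of 0.04). The log2 fold change of MRPL28, a protein specific to mitochondria, was 0.29. The lowest were MRPL19 (YNL185C, the uL11 homologue at the base of the stalk), MRPL27 and MRPL3. MRPL19 had 42.4, 43.6 and 49.5 CPM in line 6 and 62, 65.3 and 67.5 CPM in WT, with no overlap and a log2 fold change of -0.53 (adjusted p = 6.8e-06 from edgeR, with a standard error of 0.07). MRPL27 and MRPL3, both specific to mitochondria, had log2 fold changes of -0.49 and -0.48. Of the other genes fixed for description, MRPL4 (-0.37), MRPL32 (-0.37) and MRP20 (-0.17) were lower, MRP51 (0.13) was higher, and MRP7 (0.07) and MRPL15 (-0.08) did not pass the test. The rise of MRP51 did not pass it with library totals (0.03), whereas MRPL15 was lower with them (-0.18) and MRP7 higher by DESeq2 (0.08). Without WT replicate 2 neither MRP51 nor MRP20 was called (adjusted p = 0.0733 and 0.109 from edgeR), and MRP20 was not called without line 6 replicate 1 or 2 or WT replicate 1 either (adjusted p between 0.0509 and 0.0616).

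In line 9 the group lay slightly above WT. Of the 50 genes, 23 were higher and 3 lower, where 32.5% of all tested genes were higher and 33.9% lower, and 24 did not pass the test. The median was 0.11, against -0.01 over all genes, and no gene changed by 2-fold, where 6.69% of all genes did. The genes took 0.662% ± 0.016 of all counts in line 9 and 0.629% ± 0.00847 in WT (SD, n = 3 each). At an adjusted p under 0.01, 15 genes were higher. The count of lower genes was 1 without line 9 replicate 2 and 1 without WT replicate 3.

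MRPL36 rose most in line 9, with 158, 155.2 and 154.2 CPM against 118.9, 111.7 and 118.7 CPM in WT (log2 fold change 0.42, adjusted p = 1.16e-07 from edgeR, with a standard error of 0.04). MRPS12 had 287.2, 327.6 and 314.4 CPM in line 9 and 246.7, 248.7 and 210.8 CPM in WT (log2 fold change 0.40, adjusted p = 1.84e-05 from edgeR, with a standard error of 0.06). The groups did not overlap for either gene, and the log2 fold change of MRPS16 was 0.25. The 3 lower genes were MRPL32 (-0.23), MRPL24 (-0.17, the bL28 homologue) and MRPL11 (-0.13, the uL10 homologue of the stalk). MRPL11 was not called by DESeq2 (log2 fold change -0.10) and neither MRPL11 nor MRPL24 with RLE size factors. The call of MRPL24 was also lost without line 9 replicate 2 or 3 or WT replicate 1 or 3 (adjusted p between 0.0633 and 0.129), and that of MRPL11 without nascent replicate 1 or 2, line 9 replicate 1 or 2 or any WT library (adjusted p between 0.0526 and 0.172). MRP7 (0.24), MRP20 (0.18) and MRP51 (0.17) were higher, and MRPL4 (0.03) and MRPL15 (-0.03) did not pass the test. Of the 13 small subunit genes 9 rose (69.2%), and of the 37 large subunit genes 14 rose (37.8%) and 3 fell. Over all tested genes 32.5% rose and 33.9% fell, so the large subunit share of rises was near that of all genes. The difference between the subunits was not tested.

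**Figure D4:**
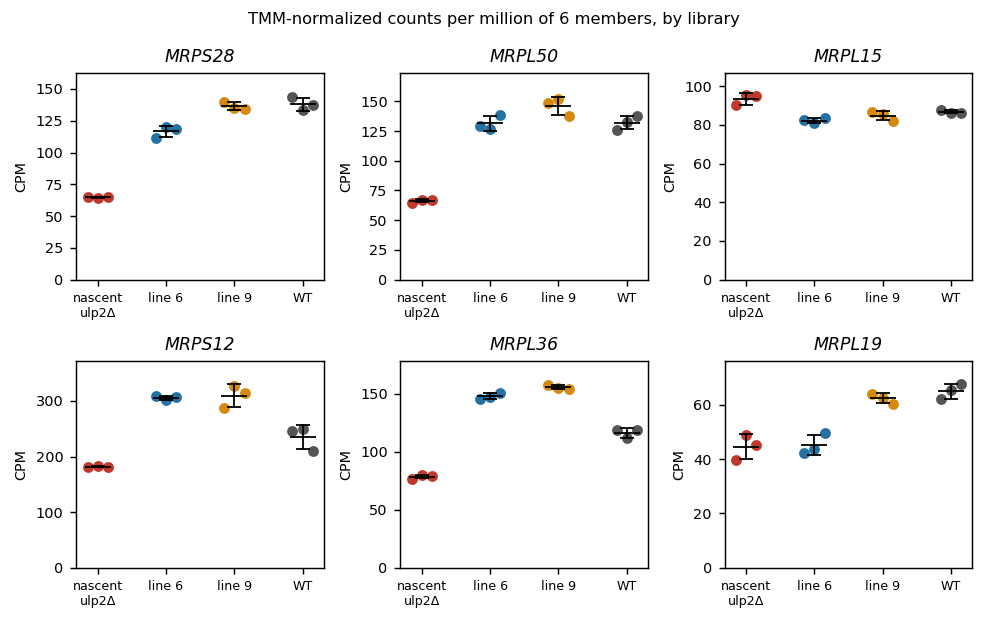
TMM-normalized CPM of 6 of the 50 genes in each library of nascent ulp2Δ, line 6, line 9 and WT; points are libraries, bars show mean ± SD (n = 3), and each vertical axis starts at 0. MRPS28 and MRPL50 are lowest in nascent ulp2Δ, MRPL19 is low in nascent ulp2Δ and line 6, MRPS12 and MRPL36 are highest in the 2 lines, and MRPL15 differs little between groups.

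Compared directly with nascent ulp2Δ, both lines had higher RNA of most of these genes. In line 6, 43 of the 50 were higher and 2 lower, where 40.1% of all tested genes were higher and 38.9% lower, with a median log2 fold change of 0.57. None reached 2-fold, where 17.8% of all genes did. In line 9, 49 were higher and 1 lower, where 38.2% were higher and 37.9% lower, with a median of 0.71. In line 9, 7 genes rose by 2-fold or more (MRPL50, MRPL35, MRP21, MRPS28, MRPL38, MRPL13 and MRP4), where 3.75% of all genes rose that much and 14.4% changed by it in either direction. The comparisons of a line with nascent ulp2Δ and of nascent ulp2Δ with WT share the nascent libraries, so they are not independent. Of the 4 group means, the nascent one was the lowest for 47 genes, and that of line 9 the highest for 32.

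The same 3 genes led both comparisons. MRPL50 had 128.8, 126.7 and 138.6 CPM in line 6 and 148.7, 151.7 and 137.9 CPM in line 9, against 64.9, 66.8 and 67.2 CPM in nascent ulp2Δ. Its log2 fold change was 0.99 in line 6 and 1.14 in line 9 (adjusted p = 6.25e-11 and 1.52e-11, edgeR). MRPL35 (mL38, which in yeast has been tied to the assembly of cytochrome c oxidase) had 159.5, 155 and 151.3 CPM in line 6 and 174, 169.2 and 174.4 CPM in line 9, against 81.1, 78.6 and 79.2 CPM in nascent ulp2Δ, log2 fold changes of 0.96 and 1.12. MRP21, the bS21 homologue of the small subunit, had log2 fold changes of 0.95 and 1.08. The libraries of the lines were all above the nascent ones for these genes.

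Some genes stood apart from this rise. MRPL15 was lower than in nascent ulp2Δ in both lines, with log2 fold changes of -0.18 in line 6 and -0.14 in line 9, and MRPL4 was lower in line 6 (-0.19) and higher in line 9 (0.20, or 0.02 and not called with library totals). In line 6 MRPL3, MRPL19, MRPL44, MRPS8 and MRP20 did not pass the test. Of these, MRPL3 (-0.10, adjusted p = 0.0606 from edgeR) was called lower by DESeq2, with the replicate block, with RLE size factors, library totals or the restricted TMM factors, under both other filters and in a fit of the compared libraries alone (adjusted p between 1.38e-05 and 0.0396). It was also called lower without nascent replicate 2, line 6 replicate 3 or line 9 replicate 1 (adjusted p between 0.0028 and 0.0398). MRP20, for example, had 191.1, 192.9 and 209.8 CPM in line 6, which overlapped the 194.1, 196.5 and 196 CPM of nascent ulp2Δ, and 251.6, 251 and 253.8 CPM in line 9. With library totals, 8 genes were lower in line 6 than in nascent ulp2Δ, and the estimate for MRP20 turned to -0.23. That scaling moved the median of all genes by -0.25 in this comparison, and the median of the 50 genes relative to all genes was 0.57 under it, as with TMM.

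Between the lines, line 6 had less RNA of these genes than line 9. Of the 50 genes, 31 were lower in line 6 and none higher by edgeR, where 29.4% of all tested genes were lower and 28.2% higher. At an unadjusted p under 0.05 there were 34 lower and 0 higher genes, and DESeq2 called 34 lower and 0 higher. The median was -0.17, against 0.00 over all genes, and no gene reached 2-fold, where 4.43% of all genes did. MRPL19 had 42.4, 43.6 and 49.5 CPM in line 6 and 64, 62.6 and 60.5 CPM in line 9, a log2 fold change of -0.47 (adjusted p = 4.17e-05 from edgeR, with a standard error of 0.07). MRPL44 (mL53), the only gene of the 50 with an annotated intron in its coding sequence, had 42.7, 38.3 and 50.8 CPM in line 6 and 60.2, 59.8 and 58.8 CPM in line 9, a log2 fold change of -0.44, and MRPL27 had -0.43. The groups were separate for all 3 genes. PUF3 was also lower in line 6 than in line 9 (-0.39), while HAP4, the regulatory subunit of the Hap complex, was higher (0.24).

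In both lines the cytosolic ribosomal protein genes fell against WT, while the medians of the 50 genes stayed near it (-0.05 in line 6, 0.11 in line 9). All 137 cytosolic genes fell in line 6 (median -1.62), where 37.2% of all tested genes did. In line 9, 132 fell and 1 rose (median -0.71), where 33.9% of all tested genes fell and 32.5% rose. The median of the 50 genes thus lay above that of the cytosolic genes by 1.57 in line 6 and 0.82 in line 9 on the log2 scale. Against nascent ulp2Δ the difference was 2.72 in line 6 and 1.94 in line 9, and between line 6 and line 9 it was 0.69. Counts of cytosolic ribosomal protein genes were 2.07 ± 0.0467 times those of the 50 genes in line 6, 3.29 ± 0.112 times in line 9 and 5.48 ± 0.0746 times in WT (SD, n = 3 each), and the ranges of the 4 groups did not overlap. RPL3 had 356.3, 336.3 and 331 CPM in line 6 and 698.7, 726.7 and 723.2 CPM in line 9, against 985, 954.7 and 959.9 CPM in WT. Its log2 fold change was -1.50 in line 6 and -0.43 in line 9, and that of RPS3 was -1.98 and -0.79.

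The other nuclear genes of mitochondrial translation were on both sides of WT in the lines, where the share of all tested genes above WT was 36.8% in line 6 and 32.5% in line 9, and the share below it 37.2% and 33.9%. The 28 further mitochondrial ribosomal protein genes had a median of -0.01 in line 6 (6 higher, 8 lower) and 0.12 in line 9 (15 higher, 1 lower). The nuclear respiratory chain and ATP synthase genes had medians of 0.06 in line 6 (14 higher and 10 lower of 37) and 0.17 in line 9 (26 higher, 1 lower). The translation factors had medians of -0.18 in line 6 (1 higher, 6 lower) and 0.01 in line 9 (4 higher, 1 lower), and the tRNA synthetases 0.04 (5 higher, and MSW1 lowest at -0.11 without passing the test) and 0.17 (8 higher, 1 lower). The 16 translational activators had medians of 0.03 in line 6 (5 higher, 3 lower) and 0.15 in line 9 (8 higher, 1 lower), and the 6 assembly genes 0.15 (3 higher, 2 lower) and 0.01 (2 higher). Single genes lay farther from WT, among them AIM10, a mitochondrial prolyl-tRNA synthetase, at 0.83 and MAM33, a matrix protein, at -0.82 in line 6. In line 9 MSS51, an activator of COX1 translation, was at 0.53 and AIM23, a mitochondrial initiation factor, at -0.63. HAP4 had 738.7, 745.9 and 811 CPM in nascent ulp2Δ, 1931, 1988 and 1866 in line 6, 1651, 1568 and 1693 in line 9, and 1062, 1032 and 1044 in WT. It was lower than WT in nascent ulp2Δ (-0.45) and higher in line 6 (0.88) and line 9 (0.65), and the part of HAP4 in the values of the 50 genes was not tested.

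Over the 12 libraries, 20467216 to 30719553 counts fell on named genes, and the 50 genes held 0.465% to 0.676% of them. The SD between replicates was 3.71% to 4.27% of the mean for the median gene of the 50. ULP2 (YIL031W), the deleted gene, was counted at most 20 times in any nascent or evolved library, against at least 8519 times in each WT library, as the labels say.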

How the data were processed

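Per the labels and the study's methods, total RNA of exponentially growing cells was extracted with RNeasy, sequenced as paired ends, trimmed with Trim Galore 0.5.0, mapped to sacCer3 with HISAT2 2.1.0 and quantified with StringTie 1.3.3b on SGD gene models. The deposited values are raw counts, whole numbers per gene and library that the authors did not normalize. The step from StringTie coverage to counts and any use of strand are not given in the sources used here. From 7114 features, 6 unnamed loci (0.0826% to 0.173% of counts) were left out, and 6011 matched the R64 annotation. Counts were scaled by TMM, filtered with filterByExpr and fitted over all 12 libraries with edgeR 4.0.16 (R 4.3.3), 1 mean per group and no block; calls needed a p under 0.05 after Benjamini-Hochberg adjustment over 6372 genes, and fold changes are ratios on the log2 scale. Standard errors are the log2 fold change divided by the root of the F statistic. Alternatives were DESeq2 1.42.0, other scalings, filters and thresholds, fewer libraries and a replicate block. Genes named are the 3 largest rises and falls per comparison called by edgeR and DESeq2, without overlap between libraries and with at least 50 counts in the higher group; fixed genes; the 3 highest and lowest per kb in WT; others, among them MRPS8, MRPL13, MRP4 and MRPL11 in line 9, were named after their values were seen. The members and lists were chosen with earlier results of these data known. MNP1, YML6, MRP35 and SWS2 were added to the further mitochondrial ribosomal genes from their family names once the annotation was at hand.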

Additional observations from a re-analysis of the deposited data

Results flagged for a closer look

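The change against WT differed between the strains in direct tests of the difference (edgeR's quasi-likelihood test, adjusted p under 0.05). These tests are the comparisons between strains already given above, repeated here, and add no further evidence. It was lower in line 6 than in line 9 for 31 of the 50 genes, higher in line 6 than in nascent ulp2Δ for 43, and higher in line 9 than in nascent ulp2Δ for 49. Among the named genes, the log2 difference of line 6 minus line 9 was -0.39 for MRPL4, -0.35 for MRP20, -0.17 for MRP7, -0.22 for MRPS28, -0.15 for MRPL50, -0.22 for MRPL38, -0.47 for MRPL19, -0.43 for MRPL27, -0.42 for MRPL3, -0.26 for MRPS16, -0.15 for MRPL35, -0.44 for MRPL44, -0.32 for MRPL11 and -0.18 for MRPS35. Outside the 50 genes it was 0.22 for 21S_RRNA and -0.25 for 15S_RRNA, neither of which DESeq2 called, -0.39 for PUF3, 0.24 for HAP4, -1.07 for RPL3 and -1.19 for RPS3. Groups of 3 libraries were not examined for single outlying samples.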

How the results depend on the processing

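Of 528 values over the list under the alternatives, 478 kept within 1.5 times the count or within the combined SD of both groups, and 50 moved; this spread was chosen after the values were seen, and by the SD of the first-named group alone 69 moved. Of 3717 values of named genes, 3586 kept their direction and side of the threshold, 87 lost and 41 gained the call, and 3 turned round, all in line 6 against nascent ulp2Δ with library totals (MRP20 -0.233, MRPL19 -0.234, MRPL33 -0.016).

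With a 2-fold threshold, 1 gene was lower (MRPS28) and 0 were higher for nascent ulp2Δ against WT, 7 were higher and 0 lower for line 9 against nascent ulp2Δ, and 0 were called in either direction elsewhere. At an adjusted p under 0.01 against WT, 0 genes rose for nascent ulp2Δ and 3 for line 6, while 15 rose and 1 fell for line 9. Without genes on chromosomes I and XII or overlapping others, 0 rose for nascent ulp2Δ against WT, and 0 fell for either line against nascent ulp2Δ. With library totals the median was -0.528 in nascent ulp2Δ, -0.157 in line 6 (3 higher, 31 lower) and 0.074 in line 9 against WT, 0.320 in line 6 (8 lower) and 0.526 in line 9 against nascent ulp2Δ, and -0.238 between the lines; that scaling moved the median of all genes by up to -0.25. With TMM factors from genes off chromosomes I and XII and outside the cytosolic ribosomal proteins it was -0.604 in nascent ulp2Δ against WT, and 0.479 in line 6 and 0.632 in line 9 against nascent ulp2Δ. DESeq2 and a fit of the compared libraries alone gave -0.650 each in nascent ulp2Δ against WT, DESeq2 and RLE size factors 0.128 in line 9 against WT (1 lower with RLE), and a mean of at least 50 counts 0.679 in line 9 against nascent ulp2Δ. Apart from the scalings themselves, the cause was not tested.

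On leaving out each library in turn, nascent ulp2Δ against WT had 0 to 1 higher genes and a median of -0.697 to -0.622, line 6 against WT 3 to 7 higher genes, line 9 against WT 1 to 3 lower genes and a median of 0.082 to 0.117, line 6 against nascent ulp2Δ a median of 0.525 to 0.583, and line 9 against nascent ulp2Δ one of 0.672 to 0.735. Replicate numbers were not treated as pairs: of 18 same-numbered pairs of libraries, 6 had deviations correlated above 0.1 (range -0.194 to 0.278). With the replicate number as a block, 49 genes were lower and 1 higher in nascent ulp2Δ against WT (median -0.677), line 6 had 6 higher and 20 lower genes and line 9 had 23 and 3, and 3 in place of 2 were lower in line 6 than in nascent ulp2Δ, the added gene being MRPL3 (-0.103).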

Other observations

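The Puf3 letters also occurred after the stop codon of 226 tested protein-coding genes outside the 50 genes. In nascent ulp2Δ the median log2 fold change of these genes was -0.33, with 151 lower and 40 higher than in WT, while 5560 other protein-coding genes without the letters had a median of -0.04, with 2288 lower and 1909 higher. Against nascent ulp2Δ, the medians of the 226 genes were 0.38 in line 6 and 0.39 in line 9, against 0.00 and 0.00 for the genes without the letters. The 226 genes include other genes of mitochondrial translation, with 15 of the 28 further mitochondrial ribosomal protein genes (53.6%) and 12 of the 14 mitochondrial tRNA synthetase genes (85.7%), and the difference was not tested.

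MAM33, an assembly gene of the mitochondrial ribosome, had a log2 fold change against WT of -1.45 in nascent ulp2Δ and -0.82 in line 6, and -0.04 in line 9, where it did not pass the test (adjusted p = 0.44, edgeR). It was the largest fall of the 6 assembly genes in nascent ulp2Δ.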
